A study of Mus musculus with 28 samples.

Results

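Pou5f1, Nanog, Sox2, Esrrb, Sall4, Utf1, Tcl1, Dppa3 and Dppa5a are 9 genes of the core pluripotency set, taken by exact gene name from the deposited RNA and promoter tables, which hold 22138 genes each. All 9 names were found once in both tables, and all 9 passed the filter on low RNA values. The libraries came from mouse gonads at E13.5, in which primordial germ cells (PGCs) had been sorted for the surface antigen SSEA1, with the SSEA1-negative fraction kept as soma. Knockout (KO) germ cells were Setdb1 delta/-, with 2 RNA libraries per sex. Setdb1 encodes a methyltransferase that places H3K9me3. The heterozygous controls, Het1 (delta/+) and Het2 (flox/-), had 2 RNA libraries each per sex and were pooled as Het (n = 4). A flox/+ library called wild type (WT) was made for each sex, and 1 germ cell and 1 soma RNA library came from wild-type C57BL/6 males. H3K9me3 and H3K27me3 were measured by ChIP-seq in 1 KO and 1 Het germ cell library per sex, and H3K9me3 also in 1 wild-type male soma library. The labels name neither the Cre driver nor whether replicates were separate embryos or pools, so an RNA p-value speaks only to differences among libraries.

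Primordial germ cells keep much of the transcription factor network of the early embryo. Pou5f1 (Oct4), Sox2 and Nanog are its central factors: Pou5f1 and Sox2 proteins bind DNA side by side at octamer and Sox motifs, and Nanog works with them. Esrrb, an orphan nuclear receptor, and Sall4, a zinc finger factor, bind with these factors in embryonic stem cells. Utf1 is a chromatin-associated factor, Tcl1 a coactivator of AKT kinases, Dppa3 (Stella) a maternal factor that protects methylated DNA from oxidation in the zygote, and Dppa5a a KH-domain RNA-binding protein. At this age germ cells in the ovary begin meiosis and switch the network off, whereas germ cells in the testis enter mitotic arrest and lose it later. H3K9me3 and H3K27me3 are histone marks of silent chromatin.

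RefSeq promoter windows of 300 bases (250 before and 50 after the annotated start, build GRCm38.p6) were available for 6 of the 9 genes, with 9 windows in all. The deposited promoter values instead cover 1 kb on either side of a start on mm9, so the windows show only the letters around RefSeq starts. The 4 below are shown because Utf1 and Nanog had the largest H3K9me3 ratios between male KO and Het, Tcl1 the highest H3K9me3 in soma, and Sox2 the most CpG dinucleotides. CpGs are in capitals, and each window is read 5′ to 3′ on the strand of its gene.
Nanog (chr6:122707239-122707538, plus strand): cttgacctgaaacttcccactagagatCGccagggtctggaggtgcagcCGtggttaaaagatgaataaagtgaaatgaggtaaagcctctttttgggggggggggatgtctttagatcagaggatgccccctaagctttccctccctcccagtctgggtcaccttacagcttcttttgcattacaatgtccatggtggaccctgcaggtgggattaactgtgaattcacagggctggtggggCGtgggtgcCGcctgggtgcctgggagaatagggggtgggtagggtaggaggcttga
Sox2 (chr3:34649745-34650044, plus strand): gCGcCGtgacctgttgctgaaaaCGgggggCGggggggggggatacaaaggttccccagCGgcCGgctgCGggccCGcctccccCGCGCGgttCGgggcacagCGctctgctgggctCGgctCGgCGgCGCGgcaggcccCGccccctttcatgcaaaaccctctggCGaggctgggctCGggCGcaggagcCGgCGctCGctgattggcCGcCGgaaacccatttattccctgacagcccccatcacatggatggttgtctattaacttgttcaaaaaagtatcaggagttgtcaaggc
Utf1 (chr7:139943606-139943905, plus strand): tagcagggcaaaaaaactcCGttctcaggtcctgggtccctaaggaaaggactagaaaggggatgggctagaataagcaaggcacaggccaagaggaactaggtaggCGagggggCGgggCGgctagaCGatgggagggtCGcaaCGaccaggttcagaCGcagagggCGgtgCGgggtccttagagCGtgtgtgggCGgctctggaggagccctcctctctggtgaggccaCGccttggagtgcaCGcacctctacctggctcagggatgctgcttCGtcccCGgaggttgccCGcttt
Tcl1 (chr12:105222688-105222987, minus strand): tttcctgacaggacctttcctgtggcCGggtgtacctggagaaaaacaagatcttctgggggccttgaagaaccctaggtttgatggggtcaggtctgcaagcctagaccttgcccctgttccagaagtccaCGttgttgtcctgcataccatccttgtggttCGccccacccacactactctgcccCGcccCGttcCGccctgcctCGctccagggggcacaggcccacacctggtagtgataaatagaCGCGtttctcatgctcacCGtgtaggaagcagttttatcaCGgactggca

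The Sox2 window held 27 CpGs, more than 84.5% of the 32851 RefSeq promoter windows, whose median was 7. Utf1 had 17, Tcl1 11 and Nanog 4, and Nanog's count exceeded that of only 31.4% of windows. Windows not printed had 11 and 6 CpGs for the 2 starts of Pou5f1 and 7 for each of the 2 starts of Esrrb. The octamer ATGCAAAT, read on both strands, was in none of the 9 windows and in 1.74% of all windows. The Sox pentamer ACAAT or its complement ATTGT was in 4 of the 9 windows (2 of Nanog, which overlap, 1 of Pou5f1 and 1 of Esrrb) and in 31.0% of all windows. ACAAAG or CTTTGT was in the Sox2 window alone among the 9, and in 18.7% of all windows. A joined Oct and Sox sequence, TGCATNACA or TGTNATGCA, was searched after the Nanog window had been seen, and overlaps the pentamer there. It was in both Nanog windows, in no other of the 9 and in 0.801% of all windows. It began at position -73 in the printed window, counting the start base as 0, and is in capitals here with 8 bases on each side.
Nanog Oct-Sox sequence: gcttctttTGCATTACAatgtccat

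Library facts that touch these genes were checked first. RNA depth could not be read from the values, and the 14 germ cell libraries of the cross had 11636 to 12745 genes at 1 RPKM (reads per kilobase, adjusted for sequencing depth) or more. Setdb1 RNA, measured over the whole gene, averaged 33.0 ± 2.38 RPKM in female KO (SD, n = 2) and 45.7 ± 9.05 in female Het (n = 4), and 29.2 ± 2.89 in male KO (n = 2) and 46.1 ± 6.25 in male Het (n = 4). Over both sexes this was a log2 difference of -0.54 that missed the threshold (limma adjusted p = 0.0783). Female Het2 replicate 1 stood apart: all 9 genes lay below the female Het median in it, by a median of -1.14 on the log2(RPKM + 1) scale. It also had the most RNA of the erythroid markers, 257.63 RPKM summed over 6 genes, against 1.78 to 43.52 in the other female libraries. Its 8 germ cell markers summed to 1548.53 RPKM, within the range of 972.31 to 1617.64 in the other female libraries. Setdb1 RNA was also highest in this library among the female ones, at 58.89 RPKM, against 38.24 to 43.22 in the other female Het libraries. The means and the test of Setdb1 above include it. Calls among the 9 genes that changed without it are given both ways.

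All 9 genes were germ cell RNAs in the C57BL/6 male gonad, where their sum was 1874.95 RPKM in PGCs and 8.04 RPKM in soma. Dppa5a had 518.34 RPKM in PGCs and 1.89 in soma, Dppa3 409.09 and 1.5, Utf1 301.56 and 2.01, and Sall4 198.35 and 0.62. Pou5f1 had 180.86 RPKM in PGCs and 0.75 in soma, Tcl1 82.41 and 0.19, Sox2 81.31 and 0.40, Nanog 70.70 and 0.31, and Esrrb 32.33 and 0.37. The ratio of PGC to soma ran from 87.4 for Esrrb to 434 for Tcl1. All 9 were past 2-fold higher in PGCs on the scale of RPKM + 1, a share to be set beside 17.6% of the 13457 genes detected in either library. There was 1 library of each, so this has no replicate check. Fewer cells of a type and less RNA per cell cannot be told apart in such bulk samples.

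In germ cells of the testis the 9 genes spanned a wide range of levels. Male Het means ran from 591 ± 179 RPKM for Dppa3, 472 ± 43.9 for Dppa5a, 344 ± 32.2 for Utf1 and 187 ± 66.0 for Pou5f1 to 135 ± 12.5 for Sall4, 84.0 ± 7.86 for Sox2, 73.2 ± 24.0 for Tcl1, 55.3 ± 12.3 for Nanog and 27.035 ± 1.84 for Esrrb (SD, n = 4). The ranges of Dppa3 and Dppa5a, of Pou5f1 and Sall4, of Sox2 and Tcl1, and of Tcl1 and Nanog overlapped, whereas the other neighbours in this order did not. In female Het the order was Dppa3, Dppa5a, Sall4, Utf1, Pou5f1, Sox2, Nanog, Tcl1 and Esrrb. There the gap between Sox2 (lowest library 47.62 RPKM) and Nanog (highest library 42.94 RPKM) was the only one between neighbours without overlap. Dppa3 and Dppa5a, the 2 highest, ranked 31 and 21 from the top of 22138 genes in the C57BL/6 PGC library.

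The comparison of ovary with testis asked which of these RNAs already differ between the sexes. In Het germ cells 5 of the 9 were lower in females: Dppa5a, Dppa3, Utf1, Tcl1 and Pou5f1. Of the 13518 genes tested, 14.3% were called lower in females (1939, beside 2373 called higher). Sall4 and Sox2, at the other end, had differences close to 0, and Nanog and Esrrb lay between and missed the threshold.

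Dppa5a had 206.50, 164.01, 79.45 and 189.88 RPKM in the 4 female Het libraries (in the order Het1 replicates 1 and 2, Het2 replicates 1 and 2), against 537.41, 444.18, 449.66 and 456.76 in the male Het libraries. Every female library was below every male library, and the log2 difference was -1.64 (SE 0.24, limma adjusted p = 0.000426). Dppa3 had 177.00, 226.21, 94.71 and 265.47 RPKM in female Het, against 843.09, 540.53, 420.45 and 561.90 in male Het, a log2 difference of -1.68 (SE 0.30, adjusted p = 0.00135). No female library reached the lowest male one for this gene either. Utf1 had 173.00, 114.33, 33.55 and 148.06 RPKM in female Het, against 372.33, 316.96, 371.74 and 315.56 in male Het (log2 difference -1.77, SE 0.39, adjusted p = 0.00461). Tcl1 had 37.88, 17.30, 9.30 and 36.00 RPKM in female Het, against 104.32, 54.29, 79.99 and 54.21 in male Het (log2 difference -1.65, SE 0.36, adjusted p = 0.00484). For these 4 genes female and male Het libraries did not overlap, as was so for 14% of the genes tested, with females lower. Het2 replicate 1 was the lowest female Het library for all 4. Without it the female Het means were 187 RPKM for Dppa5a, 223 for Dppa3, 145 for Utf1 and 30.4 for Tcl1, and all 4 were still called.

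Pou5f1, the gene of Oct4, had 148.38, 71.21, 45.12 and 102.24 RPKM in female Het, against 278.41, 139.17, 191.34 and 137.98 in male Het. The groups overlapped, since female Het1 replicate 1 was above 2 of the male libraries, and the log2 difference of -1.09 (SE 0.32) had an adjusted p of 0.0223 by limma. That call did not hold without female Het2 replicate 1 (-0.80, adjusted p = 0.0539), without male Het1 replicate 1, which had the highest Pou5f1 value (-0.88, adjusted p = 0.0622), without male Het2 replicate 1 (-1.06, adjusted p = 0.0554) or without female Het1 replicate 2 (-1.01, adjusted p = 0.0616). Its adjusted p ranged from 0.00512 to 0.185 over all alternatives. Nanog had 37.81, 25.53, 5.87 and 42.94 RPKM in female Het, against 40.92, 65.90, 49.15 and 65.32 in male Het (log2 difference -1.23, SE 0.46, adjusted p = 0.0580). Its female libraries overlapped the male ones only through Het2 replicate 2 at 42.94 RPKM. Esrrb had 25.64, 15.30, 6.37 and 24.64 RPKM in female Het, against 26.92, 24.47, 28.40 and 28.35 in male Het (log2 difference -0.73, SE 0.32, adjusted p = 0.10). Of its female libraries, 2 lay within the male range and 2 below it. Without female Het1 replicate 1 both were called lower, Nanog at -1.47 (adjusted p = 0.0368) and Esrrb at -0.94 (adjusted p = 0.0395), and Nanog was also called without female Het2 replicate 2 (-1.53, adjusted p = 0.0288). Over all alternatives the adjusted p ran from 0.0288 to 0.195 for Nanog and from 0.0395 to 0.417 for Esrrb.

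Sall4 had 134.26, 124.38, 67.50 and 160.22 RPKM in female Het, against 119.59, 143.64, 131.02 and 146.77 in male Het (log2 difference -0.22, SE 0.23, adjusted p = 0.511). Sox2 had 85.82, 89.76, 47.62 and 107.49 RPKM in female Het, against 77.39, 90.99, 77.03 and 90.64 in male Het (log2 difference -0.08, SE 0.24, adjusted p = 0.83). The 95% confidence intervals ran from -0.72 to 0.29 for Sall4 and from -0.59 to 0.43 for Sox2. Without female Het2 replicate 1 both differences were positive, 0.04 for Sall4 and 0.16 for Sox2. The WT libraries, outside the fit, had 315.22 RPKM of Dppa3, 211.14 of Dppa5a, 159.66 of Utf1, 36.45 of Tcl1 and 106.69 of Pou5f1 in the female, against 572.54, 511.10, 326.11, 54.70 and 131.46 in the male. Nanog had 46.15 RPKM in the female WT library and 67.09 in the male, and Esrrb 26.08 and 31.03. Sall4 and Sox2 were higher in the female WT library, at 156.42 and 121.60 RPKM, against 125.53 and 97.94 in the male.

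**Figure D1:**
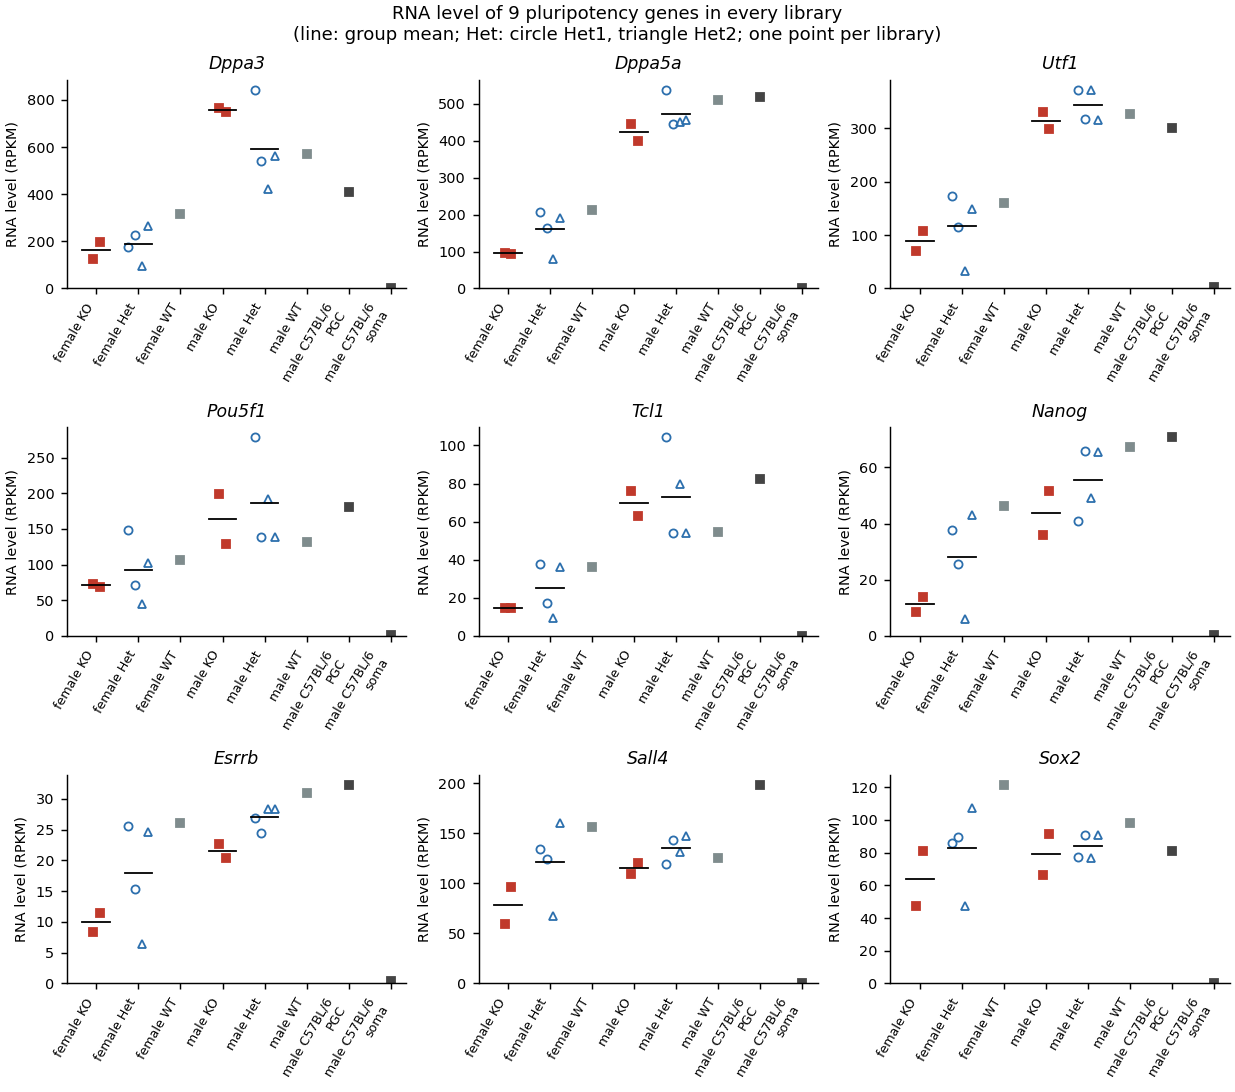
RNA level (RPKM, y axis) of each of the 9 genes in every library, by sex and genotype (x axis), with 1 point per library and a line at the mean where a group has more than 1. For Dppa3, Dppa5a, Utf1 and Tcl1 the female Het points lie below all male Het points, for Sall4 and Sox2 they overlap, and the C57BL/6 soma point is near 0 for all 9 genes.

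A wider pluripotency list and markers of the neighbouring states were set beside the 9 genes. Of 37 further pluripotency genes, 35 were in the table and 30 were tested: 8 were lower and 1 was higher in female than in male Het (median log2 difference -0.38, against 0.05 over all genes tested and -1.23 over the 9). The largest falls were in Tdgf1 (log2 difference -3.36, adjusted p = 1.25e-07), a co-receptor for Nodal, which averaged 0.110 ± 0.131 RPKM in female Het and 10.6 ± 2.89 in male Het, and in L1td1 (-2.15, adjusted p = 0.00783), an RNA-binding protein, with 33.0 ± 19.0 and 128 ± 52.6 RPKM (SD, n = 4 each). Dppa4, Sox15, Tet1, Prdm14, Zscan10 and Mycn were the other 6 lower genes, and Lin28b was the higher one, at 12.5 ± 1.61 RPKM in female Het and 8.24 ± 0.656 in male Het (0.54, adjusted p = 0.00942). Without female Het2 replicate 1 the list had 4 lower and 2 higher genes and a median of -0.11, and the median of the 9 was -0.80. The list had 5 lower genes without female Het1 replicate 2, male Het1 replicate 2, male Het2 replicate 1 or male Het2 replicate 2, and 3 higher without male Het1 replicate 1. Of 8 genes of the post-implantation epiblast, 6 were tested and 4 were lower in females: Otx2 (-3.44, adjusted p = 1.23e-08), Nodal (-3.44, adjusted p = 5.76e-06), T (-1.13, adjusted p = 0.00254) and Sox3 (-0.87, adjusted p = 0.0199). All 6 early meiosis genes tested were higher in female Het, with Stra8, the retinoic acid target that starts meiosis, at a log2 difference of 6.59 (adjusted p = 5.53e-07). Spo11 was not called without female Het2 replicate 1, female Het1 replicate 2, male Het1 replicate 1, male Het1 replicate 2 or male Het2 replicate 2. Nor was it called without the filter on low values, after median centring or quantile normalization, or with Het2 or Het1 alone. Sycp1 was not called with Het1 alone. Of the 5 Sertoli cell markers 3 were lower in female Het, with sums of 8.92 to 14.71 RPKM in female Het and 8.94 to 64.77 in male Het, and of the 8 germ cell markers 1 was lower. Their part in the differences of the 9 genes was not tested.

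The comparison of KO with Het asked what loss of Setdb1 did to these RNAs. In female germ cells all 9 genes had negative differences between KO and Het, but none passed the threshold in the fit of 12 libraries. The median log2 difference between KO and Het was -0.55 over the 9 genes and 0.07 over all genes tested. Over the 9 it was -0.87 without Het2 replicate 1, -0.31 without either Het1 replicate 1 or Het2 replicate 2, and -0.29 without KO replicate 1, where 6 of the 9 differences were negative. In this fit 0.407% of genes were called in either direction (54 higher and 1 lower), and 1670 genes had an unadjusted p under 0.05, with 1 of the 9, Dppa5a, among them. The female Het libraries enter both this comparison and that between the sexes, and 1 of them, Het2 replicate 1, decided the calls below.

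Nanog had 8.69 and 13.77 RPKM in the female KO libraries, against 37.81, 25.53, 5.87 and 42.94 in female Het. Both KO libraries were under 3 of the Het libraries and above Het2 replicate 1, and the log2 difference was -0.98 (SE 0.56, adjusted p = 0.521). Esrrb had 8.44 and 11.39 RPKM in female KO, against 25.64, 15.30, 6.37 and 24.64 in female Het (-0.65, SE 0.39, adjusted p = 0.552). Dppa5a had 96.97 and 93.57 RPKM in female KO, against 206.50, 164.01, 79.45 and 189.88 in female Het (-0.65, SE 0.29, adjusted p = 0.388). For these 3 genes Het2 replicate 1 was the lowest of the 6 female libraries. Sall4 had 59.36 and 96.44 RPKM in female KO, against 134.26, 124.38, 67.50 and 160.22 in female Het (-0.61, SE 0.28, adjusted p = 0.408). Tcl1 had 14.60 and 14.63 RPKM in female KO, against 37.88, 17.30, 9.30 and 36.00 in female Het (-0.55, SE 0.44, adjusted p = 0.689). None of the 9 genes had both KO libraries under all 4 Het libraries, which 5.62% of genes tested had.

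Sox2 had 47.22 and 81.09 RPKM in female KO, against 85.82, 89.76, 47.62 and 107.49 in female Het, a log2 difference of -0.35. Pou5f1 had 73.14 and 68.39 RPKM in female KO, against 148.38, 71.21, 45.12 and 102.24 in female Het (-0.24). Utf1 had 70.93 and 106.91 RPKM in female KO, against 173.00, 114.33, 33.55 and 148.06 in female Het (-0.19). The KO and Het values of these 3 genes overlapped. Dppa3 had 126.71 and 197.90 RPKM in female KO, against 177.00, 226.21, 94.71 and 265.47 in female Het (-0.17). Adjusted p-values of these 4 ran from 0.691 to 0.922 by limma.

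Without female Het2 replicate 1, 3 of the 9 genes were called lower in female KO: Dppa5a (log2 difference -0.96, SE 0.14, adjusted p = 0.0126), Nanog (-1.57, SE 0.28, adjusted p = 0.0271) and Esrrb (-1.05, SE 0.21, adjusted p = 0.0402). Of the 13418 genes then tested, 0.179% were called lower. Over all alternatives the adjusted p ran from 0.00832 to 1 for Dppa5a, from 0.0170 to 1 for Nanog and from 0.0285 to 1 for Esrrb. Sall4 then stood at -0.87 (SE 0.19, adjusted p = 0.0547). With the remaining 3 Het libraries, 7 of the 9 genes had both KO libraries below every Het library, all but Pou5f1 and Dppa3, where 14.3% of genes tested did. Since that library was left out because the 9 genes were low in it, this count and the 3 calls above are favoured by the choice. The shares over all genes are no measure of either, and these adjusted p-values are no independent support. Nanog averaged 11.2 ± 3.59 RPKM in female KO (SD, n = 2) and 35.4 ± 8.95 in the remaining female Het (n = 3), Esrrb 9.92 ± 2.09 and 21.9 ± 5.70, and Dppa5a 95.3 ± 2.40 and 187 ± 21.4.

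**Figure D2:**
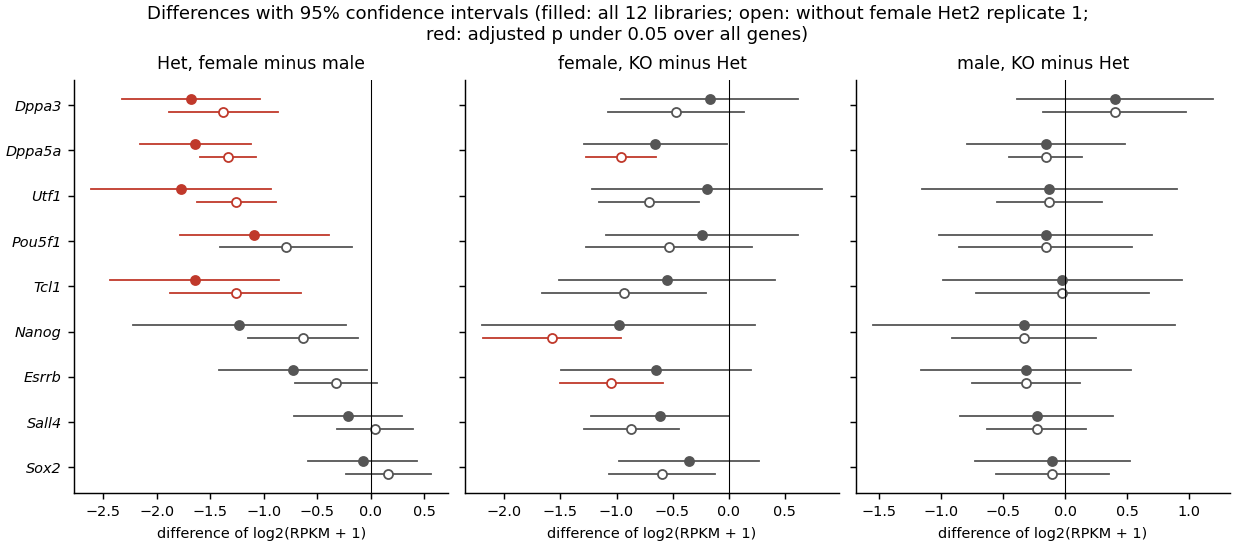
Differences of log2(RPKM + 1) with 95% confidence intervals (x axis) for the 9 genes (rows) between female and male Het, female KO and Het, and male KO and Het, with filled points from all 12 libraries, open points without female Het2 replicate 1 and red where the adjusted p is under 0.05. Between female KO and Het no filled point is red, and the open points of Dppa5a, Nanog and Esrrb are. The library missing from the open points was set apart because the 9 genes were low in it, which favours these calls.

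The female libraries differed from each other in the 9 genes and in meiosis genes. Relative to the female Het median, the median of the 9 genes was -0.87 in KO replicate 1, -0.42 in KO replicate 2, 0.27 and -0.19 in Het1 replicates 1 and 2, -1.14 and 0.31 in Het2 replicates 1 and 2, and 0.41 in WT, on the log2(RPKM + 1) scale. Stra8 had 228.46 and 158.41 RPKM in female KO, against 122.27, 136.52, 322.76 and 73.35 in female Het and 36.68 in female WT. Sycp3, a protein of the meiotic chromosome axis, had 149.83 and 133.31 RPKM in female KO, against 55.96, 103.53, 269.08 and 47.88 in female Het and 47.64 in female WT. The library with the lowest median of the 9 genes, Het2 replicate 1, thus had the most Stra8 and Sycp3, and the WT library, with the highest median, had the least of both. Rec8, a meiotic cohesin, was likewise highest in Het2 replicate 1 (158.04 RPKM) and lowest in WT (38.69). The other 3 meiosis genes did not keep this order: Dmc1 was highest in Het2 replicate 1 (90.99) but lowest in Het1 replicate 1 (24.76), Sycp1 was lowest in WT (18.92) but highest in KO replicate 2 (82.41), and Spo11 was highest in Het1 replicate 2 (11.16) and lowest in Het1 replicate 1 (4.52). All 6 meiosis genes tested had positive KO minus Het differences in females (median 0.21 on the log2 scale), and none was called. That median was 0.46 without Het2 replicate 1, 0.34 without Het1 replicate 2, 0.12 without Het1 replicate 1 and 0.11 without Het2 replicate 2, and without both Het2 replicate 1 and male Het1 replicate 1 Sycp3 was called higher. The part of meiotic stage in the values of the 9 genes was not tested. Erythroid markers also stood at 43.52 RPKM in KO replicate 1 and 2.19 in KO replicate 2, and stromal markers summed to 52.03 and 34.52 RPKM in female KO, against 16.27 to 30.98 in female Het. The 8 germ cell markers summed to 972.31 and 1209.87 RPKM in female KO, against 1237.82 to 1617.64 in female Het, and 7 of the 8 had negative differences (median -0.22). None of the 7 stromal or 8 germ cell markers was called, and their part in the result was not tested.

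**Figure D3:**
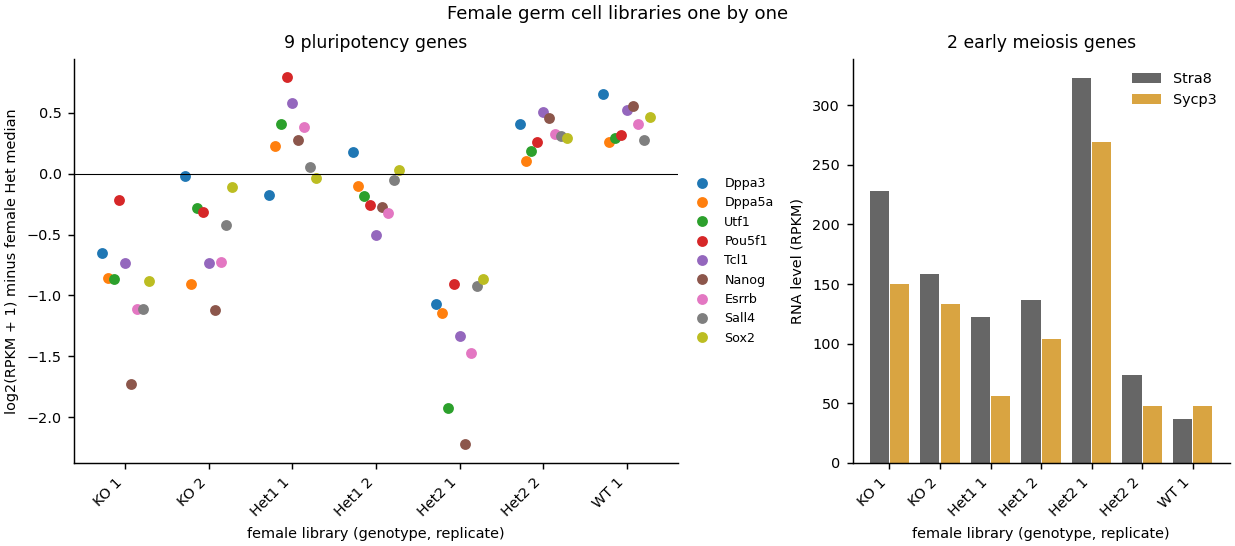
Left, log2(RPKM + 1) of each of the 9 genes minus the median of the 4 female Het libraries (y axis), in each female library (x axis), with 1 point per gene. Right, RNA levels (RPKM, y axis) of the meiosis genes Stra8 and Sycp3 in the same libraries. Het2 replicate 1 has the lowest median of the points on the left and the tallest bars on the right. Sox2 and Sall4 are lowest in KO replicate 1.

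None of the 30 genes tested of the wider list was called between female KO and Het. Of them 24 had negative differences (median -0.32, against 0.07 over all genes), and the median was -0.19 without KO replicate 1 or without Het2 replicate 2, -0.50 without Het2 replicate 1 and -0.57 without KO replicate 2. The 2 with the smallest p were Fbxo15, an F-box protein and a target of Pou5f1 and Sox2, with 13.97 ± 3.41 RPKM in female KO (SD, n = 2) and 28.9 ± 10.6 in female Het (n = 4; log2 difference -0.94, adjusted p = 0.249), and Sox15, with 6.49 ± 1.77 and 13.525 ± 6.01 RPKM (-0.87, adjusted p = 0.305). Without female Het2 replicate 1, Fbxo15, Sox15, Gdf3 and Tdh were called lower, 4 of the 30, beside the 0.179% of all genes given above. That library had been set apart for its low RNA of the 9 genes, so these calls are no independent support. The 6 post-implantation genes had a median of 0.28 (0.18 without Het2 replicate 2), and none was called.

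In male germ cells none of the 9 genes was called between KO and Het, where 0.614% of all genes were (83 higher and 0 lower). The median log2 difference was -0.16 over the 9 genes and 0.03 over all genes, and that over the 9 was -0.08 without KO replicate 2 and -0.09 without Het1 replicate 1. Nanog had 35.89 and 51.44 RPKM in male KO, against 40.92, 65.90, 49.15 and 65.32 in male Het, a log2 difference of -0.33 with a 95% confidence interval from -1.55 to 0.89. Esrrb had 22.61 and 20.40 RPKM in male KO, against 26.92, 24.47, 28.40 and 28.35 in male Het (-0.32, interval from -1.16 to 0.53). It was the only 1 of the 9 with both KO libraries under all 4 Het libraries, which 4.13% of genes tested had. Sall4 had 109.49 and 120.47 RPKM in male KO, against 119.59, 143.64, 131.02 and 146.77 in male Het (-0.23).

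Dppa3 was the exception in direction, with 766.28 and 747.96 RPKM in male KO, against 843.09, 540.53, 420.45 and 561.90 in male Het (log2 difference 0.40, interval from -0.39 to 1.19). Pou5f1 had 198.60 and 129.42 RPKM in male KO (-0.16), Dppa5a 446.21 and 399.92 (-0.16), Utf1 329.74 and 299.06 (-0.13), Sox2 66.37 and 91.61 (-0.10) and Tcl1 76.21 and 63.04 (-0.02). All 9 adjusted p-values in males were 1. The signs for Pou5f1, Sox2 and Tcl1 changed under some alternatives. Leydig cell markers, of which there were 6, were higher in male KO for 5 (median log2 difference 2.46 over the 6), with sums of 66.76 and 29.17 RPKM in male KO, against 3.42 to 5.45 in male Het and 767.61 in C57BL/6 soma. The 8 germ cell markers summed to 1232.14 and 1438.09 RPKM in male KO, against 1249.60 to 1429.00 in male Het. The part of other cell types in the values of the 9 genes was not tested.

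Averaged over both sexes, 8 of the 9 differences between KO and Het were negative (median -0.29) and none was called, beside 1.04% of all genes. The median was -0.48 without female Het2 replicate 1 and -0.17 without female Het2 replicate 2. Without female Het2 replicate 1, Dppa5a (-0.56, adjusted p = 0.0155), Nanog (-0.95, adjusted p = 0.0330) and Esrrb (-0.68, adjusted p = 0.0402) were called lower over both sexes, as were 0.238% of the genes tested. As in females alone, these calls are favoured by the choice of the library left out. The effect itself was compared between the sexes by an interaction term, in which none of the 9 genes was called, beside 0.0518% of all genes. The differences of the effect, female minus male, were negative for all 9, from -0.65 for Nanog to -0.07 for Utf1, with intervals that held 0 for all 9. With Het2 alone as controls 6 of the 9 were negative, and Pou5f1, Sox2, Esrrb and Utf1 changed sign under at least 1 alternative.

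Fragment numbers of both marks were small over the promoters of the 9 genes in germ cells. As a set, these promoters were not low beside others. Median H3K9me3 of the 9 was 0.359 RPKM in female Het and 0.168 in male Het, against 0.179 and 0.127 over all promoters. For H3K27me3 it was 0.447 and 0.306 RPKM, against 0.296 and 0.254. In KO the medians of the 9 were also above those of all promoters. Single genes lay below these medians, such as Dppa5a for H3K27me3 in female and male Het. A 2 kb window over each start held between 0.075 and 0.701 RPKM of H3K9me3 and between 0.126 and 1.627 RPKM of H3K27me3. Values stepped in units of about 0.0145 to 0.0255 RPKM per library, taken as 1 fragment. By this measure the windows held from 3 fragments (Nanog in male Het H3K9me3) to 94 (Esrrb in male Het H3K27me3). Intervals for ratios below are 95% exact binomial intervals from these approximate fragment numbers and cover counting error only. Each library was made once, so no difference has a replicate check.

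In males H3K9me3 was higher in KO than in Het at all 9 promoters, with a median log2 ratio of 0.97 (pseudocount 0.1), where 53.7% of all promoters were higher and their median was 0.06. Utf1 had 0.681 RPKM in male KO and 0.089 in male Het, a ratio of 7.65 (2.78 to 46.0). Nanog had 0.490 and 0.075 RPKM, a ratio of 6.53 (1.94 to 34.0). Tcl1 had 0.633 RPKM in male KO and 0.209 in male Het (3.03, 1.38 to 7.97), and Dppa3 0.701 and 0.293 (2.39, 1.15 to 4.97). For the other 5 genes the interval of the ratio included 1, and their KO values lay between 0.253 and 0.443 RPKM. In females the same mark was higher in KO at only 3 of the 9 promoters (Sall4, Dppa3 and Dppa5a), with a median of -0.13 against -0.16 over all promoters. Utf1 had 0.329 RPKM in female KO and 0.389 in female Het, and Nanog 0.386 and 0.457, so the male ratios of these 2 genes were not seen in females. In male Het both were among the lower windows: Nanog exceeded 27.6% of all promoters and Utf1 35.4%, while in female Het they exceeded 88.0% and 83.1%.

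H3K27me3 was also higher in male KO than in male Het at 8 of the 9 promoters, with a median log2 ratio of 1.00, where 43.4% of all promoters were higher and their median was -0.05. Nanog had 0.866 RPKM in male KO and 0.306 in male Het (ratio 2.83, 1.56 to 5.05), Dppa3 0.592 and 0.209 (2.83, 1.42 to 6.07), and Sall4 1.166 and 0.417 (2.80, 1.72 to 4.69). Tcl1 had 0.439 RPKM in male KO and 0.17 in male Het, Pou5f1 0.660 and 0.279, Sox2 0.822 and 0.414, Utf1 0.846 and 0.462, and Dppa5a 0.268 and 0.126. Esrrb, with the most H3K27me3 of the 9, had 1.586 RPKM in male KO and 1.627 in male Het, and exceeded 97.1% of all promoters in male Het. In females 6 of the 9 were higher in KO (median 0.31, against -0.15 over all promoters). Nanog had 0.671 RPKM in female KO and 0.389 in female Het (1.72, 1.02 to 3.21), Sall4 1.003 and 0.610 (1.64, 1.04 to 2.57), and Dppa3 0.694 and 0.430 (1.61, 0.941 to 2.79). Esrrb had 0.956 RPKM in female KO and 1.267 in female Het, and Tcl1 0.276 and 0.348, so these were lower in KO, as was Dppa5a at 0.151 and 0.222.

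By the rule of a 2-fold difference in the same direction in both sexes, at 1 RPKM or more in both, none of the 9 promoters was called for either mark. For H3K9me3 none of the 9 reached that level, and of the 238 promoters that did 7.56% were called. For H3K27me3 Esrrb and Sall4 reached it, and of 1800 promoters 0.0556% were called. Other sets showed smaller medians in male KO over Het. The 35 wider pluripotency genes had 0.35 for H3K9me3 and 0.35 for H3K27me3, the 8 germ cell markers 0.30 and 0.19, and the 4139 genes with a mean RNA level of 20 RPKM or more -0.02 and -0.16. No RNA fall in male KO was called at the 9 genes, as given above, and RNA and marks were not measured in the same libraries.

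**Figure D4:**
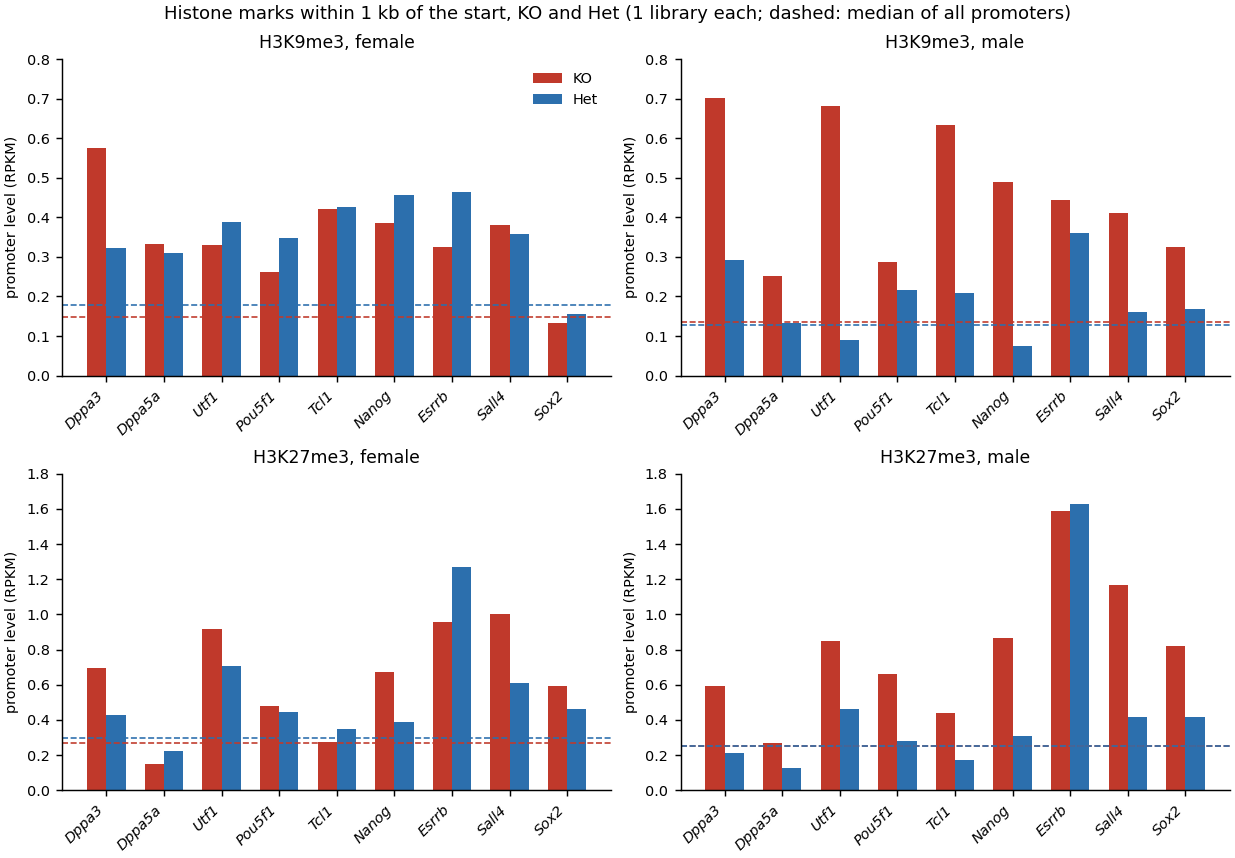
H3K9me3 (top) and H3K27me3 (bottom) within 1 kb of the start (RPKM, y axis) at the 9 promoters (x axis) in females (left) and males (right), with KO bars left of Het bars, 1 library each, and dashed lines at the median of all promoters. In males the KO bars are taller at all 9 promoters for H3K9me3 and at 8 for H3K27me3, and in females at 3 and 6.

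Between the sexes, H3K27me3 was higher in female than in male Het at 8 of the 9 promoters (median log2 ratio 0.51, against 0.03 over all promoters), with Dppa3 at 0.430 and 0.209 RPKM (ratio 2.06, 1.00 to 4.57) and Tcl1 at 0.348 and 0.17 (2.05, 0.876 to 4.77). In KO only 2 of the 9, Utf1 and Dppa3, were higher in females (median -0.39). No promoter of the 9 was called 2-fold in both genotypes, beside 0.224% of the 2237 promoters with enough signal. H3K9me3 was higher in female Het at 8 of the 9 promoters, all but Sox2 (median 0.77, against 0.21 over all promoters), and higher in female KO at Dppa5a alone. The male Het library of each mark enters both these comparisons and that of male KO with Het, so they are not independent. Median H3K9me3 of the 9 was 0.168 RPKM in it, against 0.443 in male KO, 0.359 in female Het and 0.333 in female KO. For H3K27me3 these medians were 0.306, against 0.822, 0.447 and 0.671.

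In male Het germ cells all 9 promoters had less H3K9me3 than in wild-type male soma, as nearly all promoters did. Tcl1 had 0.209 RPKM in PGCs and 1.762 in soma, Pou5f1 0.217 and 1.626, Sox2 0.168 and 1.192, and Utf1 0.089 and 1.155. These 4 reached 1 RPKM in soma alone and were past 2-fold lower in PGCs. Of the 4306 promoters at 1 RPKM or more in either library, 79.4% were called lower. Since 18.6% of all promoters reached 1 RPKM in soma and 1.35% in male Het PGCs, the floor itself favours lower values in PGCs. These calls are thus no independent support for a fall. The median over all promoters was 0.127 RPKM in male Het PGCs and 0.721 in soma. Each library was also divided by its median and multiplied by the mean of all such medians. None of the 9 then reached the floor of 1 RPKM, so none could be called. Of the 2146 promoters that did, 2085 were past 2-fold higher in PGCs and 0 lower. This scaling raised PGC values and lowered soma values before the floor was applied, so the floor then favours higher values in PGCs. After that division the ratio of PGC to soma was below 1 for 5 of the 9 genes, lowest for Utf1 at 0.437, and above 1 for 4, highest for Dppa3 at 2.78. Within the soma library, Tcl1 exceeded 99.8% and Pou5f1 99.6% of all promoters, while Nanog exceeded 26.7%, Dppa3 35.2% and Dppa5a 35.9%. Genotype and strain differ between these libraries, and neither can be told apart from cell type.

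Across the 14 germ cell libraries of the cross, the 9 genes varied together to different degrees, given as Pearson r of log2(RPKM + 1) with no test, since the libraries share sex and genotype. Nanog and Esrrb went together (r = 0.96), as did Pou5f1 and Tcl1 (0.96) and Utf1 and Dppa5a (0.96), and Sox2 and Sall4 (0.92). Utf1, Tcl1, Dppa5a and Dppa3 were alike in every pairing, from 0.91 for Tcl1 and Dppa3 to 0.96. Sox2 was least like Pou5f1 (0.32), Tcl1 (0.43) and Dppa5a (0.44). The genes most like each of the 9 over these libraries were not members of the set. They were Mak16, Enpp3 and Slc39a14 for Nanog (0.99 to 0.98), Rcc2 for Pou5f1 (0.99), C1qbp for Esrrb (0.97), Srr for Utf1 (0.99), Tsr1 for Tcl1 (0.99), Ppt1 for Dppa3 (0.97) and Ppid for Dppa5a (0.99). Elovl6 was most like Sox2 (0.98), and Dppa2, a partner of Dppa4, was most like Sall4 (0.94) and also among the 3 most like Sox2 (0.95).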

How the data were processed

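RNA-seq and ChIP-seq libraries of sorted E13.5 mouse germ cells and soma were analysed from 2 deposited tables. The submitters' processing notes name BWA, SAMtools and the mm9 build. No source used here states their versions, the read counter or the scaling total. All values are RPKM made by the authors, per the file headers, and were not rescaled: 1 value per Ensembl gene for RNA, and 1 value per window reaching 1 kb to either side of the start for each mark. The 2 PBAT libraries and the pan-H3 library were not analysed here.

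Log2(RPKM + 1) values of 12 RNA libraries (KO, and Het1 and Het2 pooled as Het, in each sex) were fitted as 4 group means with limma 3.58.1 (lmFit, eBayes with trend) in R 4.3.3. The 13518 genes that reached 1 RPKM in 2 or more libraries entered a two-sided test with Benjamini-Hochberg adjustment over all of them and a threshold of 0.05. The fit was tested on simulated data. Marks and the PGC to soma comparison have 1 library per group, so a 2-fold rule without p was used. Pseudocounts were 1 for RNA and 0.1 for marks. RNA depth could not be read from the values. Fragment numbers for the marks were estimated from the spacing of low values, and intervals from them cover counting error only. Promoter letters come from the RefSeq tables (GRCm38.p6) and were not converted to mm9.

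The 9 genes and all lists were chosen with earlier results of these data known. All 9 genes are named, and of each list the genes past the threshold or otherwise the 2 with the smallest p. Alternatives covered the pseudocount, the filter, 2 scalings, the choice of controls, a replicate block, each library left out, and for marks the fold, floor, pseudocount and scaling.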

Additional observations from a re-analysis of the deposited data

Results flagged for a closer look

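Dppa5a in male Het had 1 library far from the other 3: Het1 replicate 1 stood at 537.41 RPKM, against 444.18, 449.66 and 456.76 in the others, a gap that took up more of the range than Dixon's 95% critical value for 4 samples. Of 20 such groups examined (the 9 genes and Setdb1 in 2 sexes), 1 was flagged, which is the number chance gives at about 1 in 20. The fall of Dppa5a in female Het was called under all 21 alternatives, among them the one without this library.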

How the results depend on the processing

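The 9 genes were compared under 21 alternatives per contrast, of which the one that leaves out both female Het2 replicate 1 and male Het1 replicate 1 was chosen after seeing the data. Dppa5a, Dppa3, Utf1 and Tcl1 were called lower in female than in male Het under all 21, Pou5f1 under 14, Nanog under 5 and Esrrb under 1. None of the 9 was called between male KO and Het, or for the difference of the KO effect between the sexes, under any of them. Between female KO and Het the count of genes called ran from 0 to 3 when 1 library was left out, with 3 only without female Het2 replicate 1, and was 4 without both libraries (Dppa5a, Nanog, Esrrb and Sall4). Over both sexes it likewise ran from 0 to 3 and was 4 without both. The labels do not say that replicate numbers pair libraries. Of 15 correlations between same-numbered deviations 14 ran from 0.15 to 0.56, and that of female Het1 with Het2 was -0.04. Most same-numbered libraries thus deviated together to some degree, which the main fit leaves out and the replicate block takes in. With the number as a replicate block, 0 of the 9 were called between KO and Het in either sex and 6 between the sexes in Het (Nanog added, adjusted p = 0.0304). Calls over all genes with the block were 91 in females, against 55 without it, and 11 for the difference of the effect, against 7. Between female and male Het they were 5347, against 4312.

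No difference was called under the setting that changed its sign. Between male KO and Het, leaving out 1 library gave -0.46 to 0.15 for Pou5f1, -0.33 to 0.13 for Sox2 and -0.16 to 0.16 for Tcl1 on the log2 scale. Without both libraries Pou5f1 stood at 0.055 and Tcl1 at 0.16, and Tcl1 was 0.0093 after quantile normalization, 0.073 with Het2 alone as controls and 0.049 with WT added to the controls. Between female KO and Het, leaving out 1 library gave -0.53 to 0.034 for Pou5f1, -0.74 to 0.032 for Sox2, -0.71 to 0.10 for Utf1 and -0.49 to 0.15 for Dppa3, and Het2 alone as controls gave 0.056 for Pou5f1 and 0.30 for Utf1. Between female and male Het, leaving out 1 library gave -0.22 to 0.16 for Sox2 and -0.37 to 0.042 for Sall4, and Sox2 was 0.064 after quantile normalization, 0.064 with Het1 alone and 0.13 without both libraries. Over both sexes, Het2 alone gave 0.018 for Pou5f1 and 0.086 for Utf1, Het1 alone gave -0.085 for Dppa3, and leaving out 1 library gave -0.044 to 0.28 for Dppa3. For the difference of the effect, Het2 alone gave 0.075 for Pou5f1, 0.040 for Esrrb and 0.42 for Utf1, and leaving out 1 library gave -0.39 to 0.22 for Pou5f1, -0.63 to 0.13 for Sox2 and -0.58 to 0.22 for Utf1. The cause was not tested.

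Counts over all genes moved more. In females they ran from 3 to 164 when 1 library was left out, against 55 with all, and were 12 after quantile normalization, 23 after median centring, 2 with Het2 alone, 8 with Het1 alone, 30 with a pseudocount of 0.1, 140 without the filter and 588 without both libraries. In males they were 29 without KO replicate 1, 36 without KO replicate 2, 39 and 36 with Het2 or Het1 alone and 185 without the filter, against 83. Over both sexes they were 310, 54, 44 and 566 without the filter, with Het2 alone, with Het1 alone and without both libraries, and 53 to 256 with 1 library left out, against 141. For the difference of the effect they ran from 0 (pseudocount 0.1) to 64 (no filter), against 7, and between female and male Het they were 1449 with Het2 alone and 1159 with Het1 alone, against 4312. Median centring put the median of all genes between female KO and Het at -0.07 on the log2 scale, against 0.07 without it, and that of the 9 at -0.69, against -0.55. It gave 1955 higher and 2407 lower genes between female and male Het, against 2373 and 1939 without it. For the marks, a 1.5-fold rule called 1 of the 9 for H3K27me3 in KO (Sall4). The count of 4 lower than in soma was 2 with a pseudocount of 1 and 8 with a floor of 0.5 RPKM. It was 0 with each library divided by its median and multiplied by the mean of all medians. There none of the 9 reached the floor of 1 RPKM. Over all promoters, the settings tried gave 1 to 56 against 18 for H3K9me3 in KO, 0 to 16 against 1 for H3K27me3 in KO, 0 to 166 against 5 for H3K27me3 between the sexes, and 650 to 13965 against 3526 for PGC over soma. Of these 3526, 105 were higher and 3421 lower, whereas division by the median gave 2085 higher and 0 lower. The floor favours lower PGC values without this division and higher ones with it, so neither count measures the direction of the difference. A 4-fold rule gave 2330 genes in PGC over soma RNA, against 6230.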
